A study of Homo sapiens with 12 samples.

Results

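GALNT16 and 9 related genes of the polypeptide N-acetylgalactosaminyltransferase (GALNT) family were followed through 12 oligonucleotide arrays. They were read by 26 of the 54675 probe sets and made up 10 of the 19775 genes measured. The genes are GALNT16, GALNT2, GALNT14, GALNT10, GALNT7, GALNT1, GALNT13, GALNT3, GALNT11 and GALNT12. They were chosen by the signal of GALNT16, once called GALNTL1, which stood highest above its control level when doxycycline (Dox) was given to undifferentiated cells, so values of that comparison describe the choice and carry no test here. RNA came from the human embryonic stem cell line H9, in which every group carried a Tet-on construct that expresses GCNF when Dox is present. The gene of GCNF is NR6A1, and its product is a nuclear receptor without a known ligand that represses stem cell genes during differentiation.

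The 4 groups held 3 arrays each. Cells labelled Dox at day 6 had been kept for 6 days in a serum medium with 1 µg/ml Dox, and cells labelled RA at day 6 had been kept for 6 days in the same medium with 1 µM retinoic acid (RA). Cells labelled d0 with Dox were undifferentiated and had 1 µg/ml Dox for 4 days in a defined stem cell medium, and cells labelled d0 were undifferentiated and had no Dox. No serum-grown group without Dox or RA was analysed here. The study set Dox against no Dox at d0, and the Dox-labelled against the RA-labelled cells at day 6, to ask what GCNF regulates in undifferentiated and in differentiating cells. Whether the cells were 1 clone, and how the replicate cultures were kept apart, is not stated in the labels, so the p-values cover only the spread among these arrays.

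These enzymes begin mucin-type O-glycosylation. In the Golgi each one transfers N-acetylgalactosamine (GalNAc) to a serine or threonine of a passing protein, and other enzymes then extend that first sugar into core structures, poly-lactosamine chains and sialic acid or fucose caps. The family members overlap in substrates but differ in peptide preference. Some act on bare peptides and others, such as GALNT7 and GALNT10, prefer peptides that already carry GalNAc. GALNT2, GALNT14 and GALNT16 form a closely related subfamily, and the Xenopus counterpart of GALNT16 was described as an inhibitor of TGF-beta family signalling. Human pluripotent cells are commonly recognised by O-glycans of this kind, since the TRA-1-60 and TRA-1-81 antigens are carried by podocalyxin.

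The median signal per array was 64.2 to 78.0. Replicate arrays correlated at r = 0.986 to 0.988 over the 19775 genes, each read by 1 probe set. Precision is limited by having 3 arrays a group. The ratio of 3′ to 5′ signal of ACTB, a measure of RNA integrity, was 2.33 ± 0.058 in Dox-labelled and 2.59 ± 0.290 in RA-labelled day 6 arrays, 3.86 ± 0.0111 in d0 with Dox and 3.24 ± 0.139 in d0 arrays (mean ± SD, n = 3 each). Its part in the differences below was not tested. The d0 groups fitted their label by markers, since the 6 measured pluripotency genes (NANOG, SOX2, LIN28A, DNMT3B, ZFP42 and DPPA4) summed to between 83511 and 97504 on the 6 undifferentiated arrays, against 16787 to 19870 on the 6 day 6 arrays. The sum does not show genes that differed between the d0 groups. NANOG averaged 5468 ± 111 with Dox and 11672 ± 556 without, and SOX2 21619 ± 845 with Dox and 16978 ± 596 without. Signals are given below in the deposited linear intensity units, with SD and n = 3 per group. Log2 fold changes are given with SE on the log2(intensity + 16) scale. "Rose" and "fell" mean an adjusted p under 0.05 in limma.

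The probe sets of NR6A1 were divided on the day 6 labels, and the 2 other check genes ran against them. Of the 7 probe sets of NR6A1, the induced gene, 6 rose with Dox at d0, and 3 rose, 3 fell and 1 did not pass in Dox-labelled against RA-labelled day 6 arrays (limma over all probe sets). Among the falls, 207742_s_at stood at 29.2 ± 13.7 in Dox-labelled and 336 ± 70.9 in RA-labelled day 6 arrays, and at 615 ± 40.8 in d0 with Dox and 26.8 ± 17.6 in d0 arrays. The probe sets 210392_x_at and 211402_x_at fell 2.31-fold and 3.04-fold at day 6 (adjusted p = 0.000324 and 7.84e-05). The 3 brightest went the other way. Of these 228894_at stood at 1009 ± 223 in Dox-labelled and 528 ± 37.8 in RA-labelled arrays. The other 2, 227494_at and 227496_at, rose 1.99-fold and 1.73-fold (adjusted p = 0.00196 and 0.00577). In d0 arrays without Dox 228894_at stood at 1457 ± 115, 227494_at at 705 ± 45.45 and 227496_at at 579 ± 53.5. Their Dox-labelled day 6 means, 1009, 408 and 365, lay below these. With Dox at d0, 228894_at, 227494_at and 227496_at rose 1.96-fold, 1.54-fold and 1.80-fold. The 3 that fell between the day 6 groups, 207742_s_at, 210392_x_at and 211402_x_at, rose 15.5-fold, 3.46-fold and 5.01-fold with Dox at d0. All 7 probe sets fell in Dox-labelled day 6 against d0 with Dox. CYP26A1, an enzyme that retinoic acid induces and that degrades it, stood at 29594 ± 1005 in Dox-labelled and 271 ± 37.0 in RA-labelled arrays. CYP26B1, a second such enzyme, stood at 5075 ± 346 in Dox-labelled and 46.6 ± 11.9 in RA-labelled arrays, so both were high under the label without RA. At d0 CYP26A1 stood at 6660 ± 280 with Dox and 4494 ± 252 without, and CYP26B1 at 41.2 ± 17.4 with Dox and 52.6 ± 11.4 without. The day 6 groups are therefore called Dox-labelled and RA-labelled, and every direction between them rests on those labels. Whether the titles of the day 6 groups were exchanged was not tested.

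The 250 bases before the start of GALNT16 and of GALNT3 are shown first, because these were the family members that stood furthest from 0 in opposite directions with Dox at d0. Both come from RefSeq on GRCh38.p14, read 5′ to 3′ in the direction of the gene and ending at the base before its start. That of GALNT16 is chr14:69259908-69260157 on the plus strand and that of GALNT3 is chr2:165794248-165794497 on the minus strand. Capitals mark the nuclear receptor half-site AGGTCA.
GALNT16: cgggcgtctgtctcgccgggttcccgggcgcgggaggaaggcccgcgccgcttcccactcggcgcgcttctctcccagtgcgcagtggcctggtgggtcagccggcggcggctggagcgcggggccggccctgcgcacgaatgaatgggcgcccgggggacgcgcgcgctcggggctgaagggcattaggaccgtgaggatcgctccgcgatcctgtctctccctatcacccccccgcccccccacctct
GALNT3: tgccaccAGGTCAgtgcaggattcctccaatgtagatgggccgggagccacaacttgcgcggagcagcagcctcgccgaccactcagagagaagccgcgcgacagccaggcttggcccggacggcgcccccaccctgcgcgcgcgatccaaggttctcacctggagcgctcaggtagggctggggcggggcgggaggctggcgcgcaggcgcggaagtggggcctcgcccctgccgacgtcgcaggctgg
The GALNT16 window is 74.8% G and C, and holds no AGGTCA on either strand. The GALNT3 window is 71.6% G and C, and holds AGGTCA once, 243 bases before the start.

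All 10 genes matched the RefSeq promoter table, with 14 windows between them. AGGTCA was searched on both strands and lay in 4 of the 14 windows, of GALNT3, GALNT11 and GALNT13, the last of these in 2 separate windows, 157 and 73 bases before their starts. In GALNT11 it lay 211 bases before the start. Of all 35116 windows in the table, 12.08% hold it. The longer forms to which GCNF is known to bind are TCAAGGTCA and the direct repeat of AGGTCA with no base between the copies. They lay in no window of the 10 genes, and in 0.3189% and 0.01709% of all windows. Direct repeats of AGGTCA with 2 or 5 bases between the copies, known from retinoic acid receptors, also lay in none of the 14 windows and each in 0.002848% of all windows. The longer motifs contain the half-site, so these searches overlap. A match is a description of the letters, and neither a match nor its absence shows what binds there.

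GALNT16 spanned the widest relative range of the 10 genes. It read 385.7, 362.3 and 362.8 on the Dox-labelled day 6 arrays and 8231, 9505 and 8713 on the RA-labelled day 6 arrays. It read 2586, 2681 and 2815 on the d0 arrays with Dox and 152.8, 163.6 and 127.2 on the d0 arrays. The order was therefore RA-labelled day 6, d0 with Dox, Dox-labelled day 6 and d0, and no neighbouring groups in it overlapped. Between the day 6 groups, whose arrays the choice of genes did not use, GALNT16 fell in Dox-labelled arrays to 370.2 ± 13.4, against 8816 ± 643 in RA-labelled arrays (log2 fold change -4.51 ± 0.09, 22.8-fold lower, limma adjusted p = 2.48e-09). With the 6 day 6 arrays fitted alone the adjusted p was 2.65e-05, the highest of its alternatives, the lowest being 5.21e-15.

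The other comparisons of GALNT16 rest on arrays that chose it and are given as values without a test. At d0 it averaged 2694 ± 115 with Dox and 148 ± 18.7 without (log2 fold change 4.05, 16.6-fold). RA-labelled day 6 arrays stood 54.0-fold above d0 arrays (log2 fold change 5.76), and Dox-labelled day 6 arrays stood 7.01-fold below d0 arrays with Dox (log2 fold change -2.81). GALNT16 was thus bright in the same pair of groups, RA-labelled day 6 and d0 with Dox, in which the NR6A1 probe sets 207742_s_at, 210392_x_at and 211402_x_at were bright, although these were highest in d0 with Dox and GALNT16 in RA-labelled day 6 arrays. The 3 brightest NR6A1 probe sets were lowest in RA-labelled day 6 arrays. The 12 arrays share these 4 groups, so this is a description of 4 levels and not a test of a link.

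**Figure D1:**
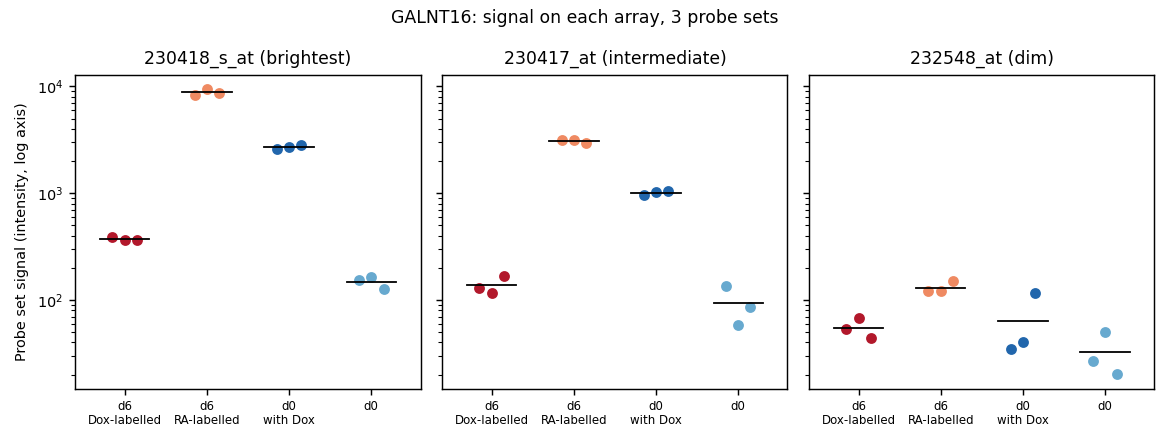
Signal of the 3 GALNT16 probe sets on each array (intensity, log axis), by group from left to right: Dox-labelled day 6, RA-labelled day 6, d0 with Dox and d0. Points are arrays and lines are means of 3 arrays. The group means of all 3 probe sets come in the same order, from 8816 in RA-labelled day 6 to 148 in d0 arrays for 230418_s_at. For 232548_at the place of d0 with Dox above Dox-labelled day 6 rests on 1 array.

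GALNT16 was read by 3 probe sets, and the plot of each on every array shows one order of group means. The second, 230417_at, averaged 138 ± 25.9 in Dox-labelled and 3087 ± 134 in RA-labelled day 6 arrays, and 1011 ± 40.4 in d0 with Dox and 93.6 ± 39.5 in d0 arrays. It fell between the day 6 groups as well (log2 fold change -4.35, limma adjusted p = 1.26e-06 over all probe sets). Its Dox-labelled day 6 and d0 arrays overlapped, so the lowest pair in the order was set apart only by the brighter probe set. The third, 232548_at, was dim, at 54.9 ± 12.2 in Dox-labelled and 131 ± 16.9 in RA-labelled arrays. It did not pass (log2 fold change -1.06, limma adjusted p = 0.0707). It read 34.5, 40.3 and 117 in d0 with Dox and 53.1, 67.8 and 43.7 in Dox-labelled day 6 arrays. The order of these 2 means thus rests on 1 array, and the groups overlapped.

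Across the family, 2 of 10 genes rose and 3 fell in Dox-labelled against RA-labelled day 6 arrays, where 25.9% of all genes were called, 13.7% higher and 12.2% lower. GALNT3 and GALNT13 rose, and GALNT16, GALNT2 and GALNT10 fell. The arrays of 7 of the 10 did not overlap, against 41.6% of all genes. The median log2 fold change of the 10 was -0.10, against 0.00 for all genes. By probe set, 1 of 26 rose and 10 fell, where 15.5% of all probe sets were called, 7.69% higher and 7.8% lower, and the 10 were of GALNT16, GALNT2, GALNT10 and GALNT1.

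GALNT2, the closest relative of GALNT16 with GALNT14 and an enzyme tied to blood lipid levels through the proteins it modifies, fell with it. It read 6952, 5764 and 7123 in Dox-labelled and 9516, 12389 and 11244 in RA-labelled day 6 arrays, and 4979, 5558 and 4924 in d0 with Dox and 3838, 3989 and 3708 in d0 arrays. No 2 neighbouring groups overlapped. Between the day 6 groups it fell 1.67-fold (log2 fold change -0.74 ± 0.11, limma adjusted p = 0.00102). The 2 next brightest probe sets of GALNT2 fell by similar sizes (log2 fold changes -0.68 and -0.70, adjusted p = 0.000423 and 0.00057 over probe sets), and the remaining dim one had a log2 fold change of -0.69 without passing (adjusted p = 0.0836).

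GALNT14, the remaining gene of that subfamily and known for O-glycosylation of death receptors, did not pass between the day 6 groups. It averaged 240.4 ± 41.1 in Dox-labelled and 204 ± 12.3 in RA-labelled day 6 arrays (log2 fold change 0.21 ± 0.20, limma adjusted p = 0.512), and 959.7 ± 172 in d0 with Dox and 847 ± 225 in d0 arrays. Its arrays overlapped within each day and were set apart between days. It was read by 1 probe set.

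GALNT10, which adds GalNAc beside sugars already in place, was the other fall. It read 993.7, 1018 and 1061 in Dox-labelled arrays and 1779, 1676 and 1862 in RA-labelled arrays, which did not overlap. The fall was 1.72-fold (log2 fold change -0.78 ± 0.07, limma adjusted p = 1.84e-05), and each of its 3 probe sets fell. At d0 it stood at 860.3 ± 33.4 with Dox and 879.8 ± 24.5 without. GALNT10 was thus set apart in RA-labelled day 6 arrays, as GALNT16 was, but its d0 arrays overlapped by its brightest probe set. GALNT7, the other enzyme with this preference, averaged 11488 ± 160.4 in Dox-labelled and 10312 ± 395 in RA-labelled arrays. Its arrays were set apart but it did not pass (log2 fold change 0.16 ± 0.07, limma adjusted p = 0.124), except with a trended variance (0.0312).

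GALNT3, whose loss in humans exposes the phosphate hormone FGF23 to cleavage and causes familial tumoral calcinosis, ran in the opposite order to GALNT2. It read 518.7, 661.1 and 358.3 in Dox-labelled and 279.7, 223.2 and 287.8 in RA-labelled day 6 arrays, and 1507, 1551 and 1515 in d0 with Dox and 4169, 3898 and 3568 in d0 arrays. All 4 groups were apart, with d0 highest and RA-labelled day 6 lowest. Between the day 6 groups it rose 1.85-fold in Dox-labelled arrays (log2 fold change 0.89 ± 0.19, limma adjusted p = 0.00589). Its other probe set was dim, at 36.9 ± 4.81 in Dox-labelled and 62.9 ± 7.11 in RA-labelled arrays, and leaned the other way without passing (log2 fold change -0.57, adjusted p = 0.119). With the average of both probe sets the call was lost (log2 fold change 0.16, limma adjusted p = 0.505).

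GALNT13, an enzyme best known from neural tissue and the closest relative of GALNT1, was the second rise at day 6. It read 188, 119 and 107 in Dox-labelled and 95.5, 67.2 and 66.2 in RA-labelled arrays, which were apart by a small gap (log2 fold change 0.72 ± 0.23, limma adjusted p = 0.0419). The call was lost with the replicate number as a block (adjusted p = 0.0541), with the 6 day 6 arrays alone (0.0846), with its probe sets averaged (0.128), and without replicate 2 or 3 of the RA-labelled or replicate 1 or 2 of the Dox-labelled arrays (0.063 to 0.138). GALNT1, which acts in most tissues, was lower without passing, at 6286, 6012 and 5816 in Dox-labelled and 7547, 7029 and 7294 in RA-labelled arrays (log2 fold change -0.27 ± 0.09, limma adjusted p = 0.0575). Its arrays did not overlap, and 2 of its 4 other probe sets fell (adjusted p = 0.0448 and 0.0132 over probe sets). It passed under 4 alternatives (adjusted p = 0.0102 to 0.0457), the replicate number as a block among them (0.0415).

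GALNT11 and GALNT12 did not pass between the day 6 groups. GALNT11, which acts on Notch1 in the left-right axis of Xenopus, averaged 4009 ± 297 in Dox-labelled and 4311 ± 239.9 in RA-labelled arrays (log2 fold change -0.11 ± 0.09, limma adjusted p = 0.448). GALNT12, known from the colon, averaged 424 ± 17.6 in Dox-labelled and 455 ± 41.7 in RA-labelled arrays (log2 fold change -0.09 ± 0.08, limma adjusted p = 0.447). The arrays of both genes overlapped.

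**Figure D2:**
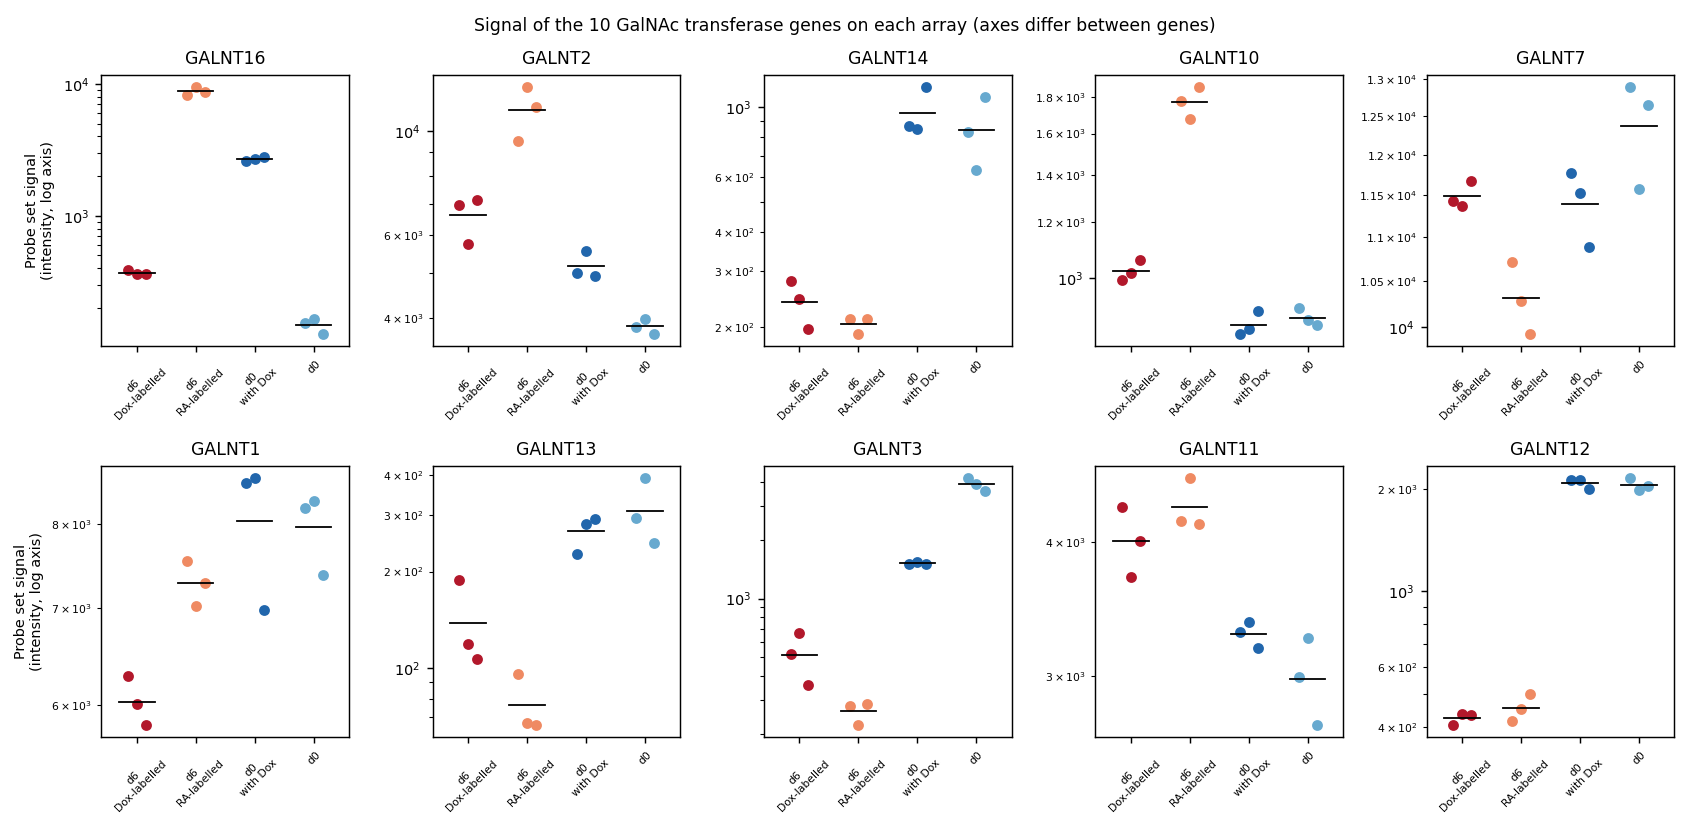
Signal of each of the 10 genes on every array (intensity, log axes that differ between genes), by group from left to right: Dox-labelled day 6, RA-labelled day 6, d0 with Dox and d0. Points are arrays and lines are means of 3 arrays; GALNT12 and GALNT14 differ between days and overlap within each day, while GALNT16, GALNT2 and GALNT3 have 4 groups apart.

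The highest group mean was in RA-labelled day 6 arrays for 4 genes (GALNT16, GALNT2, GALNT10 and GALNT11), in d0 with Dox for 3 (GALNT1, GALNT12 and GALNT14) and in d0 for 3 (GALNT3, GALNT7 and GALNT13). It was in Dox-labelled day 6 arrays for none of the 10. The lowest was in RA-labelled day 6 for 4, in d0 for 3, in Dox-labelled day 6 for 2 and in d0 with Dox for 1. The highest group overlapped the next for GALNT1, GALNT7, GALNT11, GALNT12, GALNT13 and GALNT14, and so for every gene placed highest in d0 with Dox. The lowest group overlapped the next for GALNT10, GALNT11, GALNT12 and GALNT14. Orders over all genes were not counted, so nothing is read from these numbers. The plot of the 10 genes on every array shows these orders.

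In RA-labelled day 6 against d0 arrays, a comparison that shares its d0 arrays with the one that chose the genes, 3 of the other 9 genes rose and 5 fell. In it 50.5% of all genes were called, 25.3% higher and 25.2% lower. GALNT3 fell most, to 264 ± 35.2 in RA-labelled arrays, against 3878 ± 301 in d0 arrays (log2 fold change -3.81 ± 0.19, 14.0-fold lower, limma adjusted p = 6.32e-08). GALNT12 fell 4.41-fold, to 455 ± 41.7 against 2057.5 ± 82.1 in d0 arrays (log2 fold change -2.14 ± 0.08, limma adjusted p = 9.89e-09), and its second probe set fell too. GALNT14 fell 3.83-fold (limma adjusted p = 1.37e-05), GALNT13 3.51-fold (6.12e-05) and GALNT7 by 0.26 on the log2 scale (0.00784). The rises were GALNT2 (log2 fold change 1.51 ± 0.11, 2.85-fold, limma adjusted p = 1.43e-06), GALNT10 (1.00 ± 0.07, 5.25e-07) and GALNT11 (0.53 ± 0.09, 0.000478). GALNT1 did not pass (-0.13 ± 0.09, adjusted p = 0.305). With probe sets averaged the log2 fold changes of GALNT3 and GALNT13 were smaller, at -1.95 and -1.13. The call of GALNT7 was lost with each array centred on its median (adjusted p = 0.0831) and with the 6 arrays alone (0.0517). The median log2 fold change of the 9 was -0.26, against -0.01 for all genes. The arrays of 8 of the 9 did not overlap, against 56.3% of all genes. Of their 23 probe sets, 7 rose and 7 fell, where 38.1% of all probe sets were called, 17.7% higher and 20.4% lower.

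Dox-labelled day 6 against d0 with Dox, which shares its d0 arrays with Dox with the choice of the genes, also gave 3 rises and 5 falls among the other 9. There 46.1% of all genes were called, 22.2% higher and 23.9% lower. GALNT12 fell 4.76-fold, to 424 ± 17.6 in Dox-labelled arrays, against 2079 ± 77.0 in d0 arrays with Dox (log2 fold change -2.25 ± 0.08, limma adjusted p = 9.97e-09). GALNT14 fell 3.80-fold (1.92e-05), GALNT3 by 1.58 on the log2 scale (5.03e-05), GALNT13 1.88-fold (0.00728) and GALNT1 1.33-fold (0.00442). GALNT2 (log2 fold change 0.35 ± 0.11, limma adjusted p = 0.0276), GALNT11 (0.28 ± 0.09, 0.0228) and GALNT10 (0.25 ± 0.07, 0.0105) rose by less than 1.3-fold. The calls of GALNT2 and GALNT11 were each lost without any 1 of 4 arrays, replicates 1 and 3 of both groups (adjusted p = 0.0794 to 0.0959 and 0.0536 to 0.0871), and that of GALNT2 with quantile normalization (0.0513). GALNT7 did not pass (0.01 ± 0.07, adjusted p = 0.909). The GALNT2 probe sets 217787_s_at and 223991_s_at rose more than its brightest (log2 fold changes 0.56 and 0.51, limma adjusted p = 0.000427 and 0.00122 over probe sets). The dim 239930_at of GALNT2 did not pass (-0.23, adjusted p = 0.526). Of the 2 other probe sets of GALNT10, 1 fell (log2 fold change -0.53, adjusted p = 0.0413 over probe sets) and 1 did not pass (0.17, adjusted p = 0.2). With probe sets averaged the direction of GALNT10 turned (-0.036), and the call of GALNT1 was lost (adjusted p = 0.131). The median log2 fold change of the 9 was -0.41, against -0.03 for all genes. The arrays of 8 of the 9 did not overlap, against 55.7% of all genes. Of the 23 probe sets, 6 rose and 10 fell, where 34.9% of all probe sets were called, 14.9% higher and 19.9% lower.

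Side by side, GALNT12 and GALNT14 had log2 fold changes of -2.14 and -1.94 in RA-labelled day 6 against d0, and of -2.25 and -1.93 in Dox-labelled day 6 against d0 with Dox. GALNT3 had -3.81 and -1.58, and GALNT2 had 1.51 and 0.35 by its brightest probe set. By other probe sets GALNT2 had 1.52 and 0.56 (217787_s_at), 1.32 and 0.51 (223991_s_at) and 0.64 and -0.23 (the dim 239930_at). Differences between the 2 changes of a gene were not tested. In bulk RNA, fewer cells that use a gene and less of its RNA per cell cannot be told apart.

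With Dox at d0, the comparison that chose the genes, the remaining values are given without a test. GALNT3 averaged 1524 ± 23.5 with Dox and 3878 ± 301 without (log2 fold change -1.34), and GALNT2 5154 ± 351.3 with Dox and 3845 ± 140.5 without (0.42). By their brightest probe sets the other 7 lay between -0.19 and 0.20 in log2 fold change, and the arrays of each overlapped. Among their other probe sets, 207357_s_at of GALNT10 (-0.32) and 222587_s_at of GALNT7 (-0.29) were lower without overlap. The GALNT1 probe set 201724_s_at was higher without overlap (0.07). The dim second probe set of GALNT3 overlapped (-0.21), and averaging took GALNT3 to -0.77. For description only, 2 of the 10 genes stood past the threshold higher, GALNT16 by which the genes were chosen and GALNT2, and 1 lower, GALNT3, where 12.9% of all genes did, 7.75% higher and 5.16% lower. The arrays of 3 of the 10 did not overlap, beside 31.5% of all genes. Of the 26 probe sets 2 were past it higher, both of GALNT16, and 1 lower, where 5.81% of all probe sets were, 3.31% higher and 2.5% lower. Nothing is read from these counts.

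**Figure D3:**
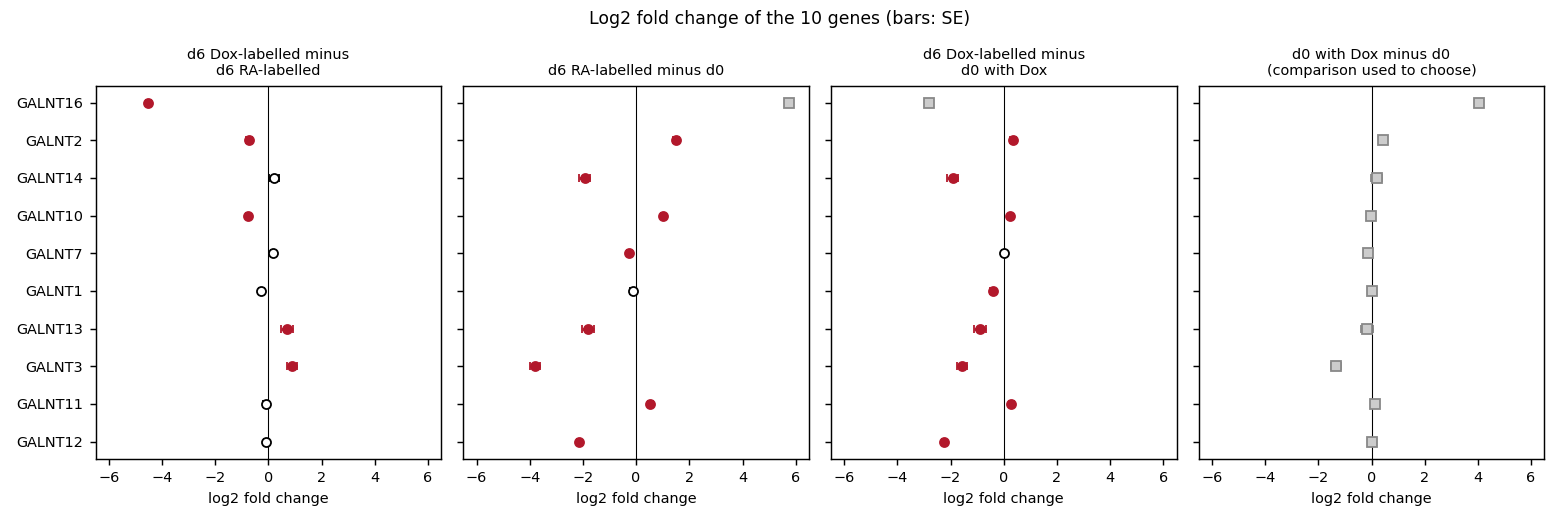
Log2 fold change (on log2(intensity + 16), bars are SE) of the 10 genes in 4 comparisons. Filled red circles passed an adjusted p of 0.05 in limma, open circles did not, and grey squares are values given without a test; GALNT16 runs from -4.51 between the day 6 groups to 5.76 in RA-labelled day 6 against d0.

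Markers of other cell types moved with these comparisons. Between the day 6 groups, 1 of 6 measured pluripotency markers rose and 4 fell, 2 of 5 fibroblast or mesenchyme markers and 2 of 4 trophoblast markers rose, both cardiac markers rose, and 1 of 4 neural and 1 of 3 endothelial markers rose. None of the 4 endoderm or yolk sac markers passed. Trophoblast markers summed to between 10374 and 10547 in Dox-labelled and between 4339 and 4631 in RA-labelled arrays, with CGA and GCM1 below 16 in every group. Mesenchyme markers summed to between 58642 and 62543 in Dox-labelled and between 43470 and 52460 in RA-labelled arrays. That sum hides unlike genes. COL1A1, the brightest, averaged 37199 ± 978 in Dox-labelled and 36524 ± 3958 in RA-labelled arrays. POSTN averaged 10845 ± 571 in Dox-labelled and 1042 ± 209 in RA-labelled arrays. Against their d0 groups, the 6 pluripotency markers fell in both day 6 groups. Mesenchyme markers rose, 5 of 5 in Dox-labelled and 4 of 5 in RA-labelled arrays. In both day 6 groups 3 of 4 endoderm or yolk sac, 2 of 4 trophoblast and both cardiac markers rose. Of 4 neural markers 1 rose in each, and 1 fell in Dox-labelled and 2 in RA-labelled arrays. Of 3 endothelial markers 1 fell in each, and 0 rose in Dox-labelled and 2 in RA-labelled arrays. In d0 with Dox against d0, 1 of 6 pluripotency markers rose and 2 fell, and both cardiac and 1 of 3 endothelial markers fell. There 1 of 4 neural and 1 of 4 trophoblast markers rose, and no mesenchyme or endoderm marker passed. The part of these shifts in the GALNT values was not tested.

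Likeness to GALNT16 was measured as the root mean square difference of log2 values over the 12 arrays, after each gene was centred on its own mean, among 9887 genes at or above the median mean. The nearest was DYRK3, a kinase that dissolves stress granules, at 0.951, followed by the calcium-binding protein S100A4 (1.38), the BMP antagonist GREM1 (1.41), SH3BGR (1.49) and the transcriptional coregulator CITED2 (1.498). The median difference over all ranked genes was 2.28. DYRK3 averaged 185 ± 43.8 in Dox-labelled and 1368 ± 229 in RA-labelled day 6 arrays, and 643 ± 59.0 in d0 with Dox and 116 ± 25.1 in d0 arrays, which is the order of GALNT16. GREM1 averaged 645 ± 129 in Dox-labelled and 11168 ± 256 in RA-labelled arrays, and 2453 ± 363 in d0 with Dox and 1783 ± 145 in d0 arrays, so its lowest group was Dox-labelled day 6. All 12 arrays share the 4 groups, and the ranking carries no p.

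**Figure D4:**
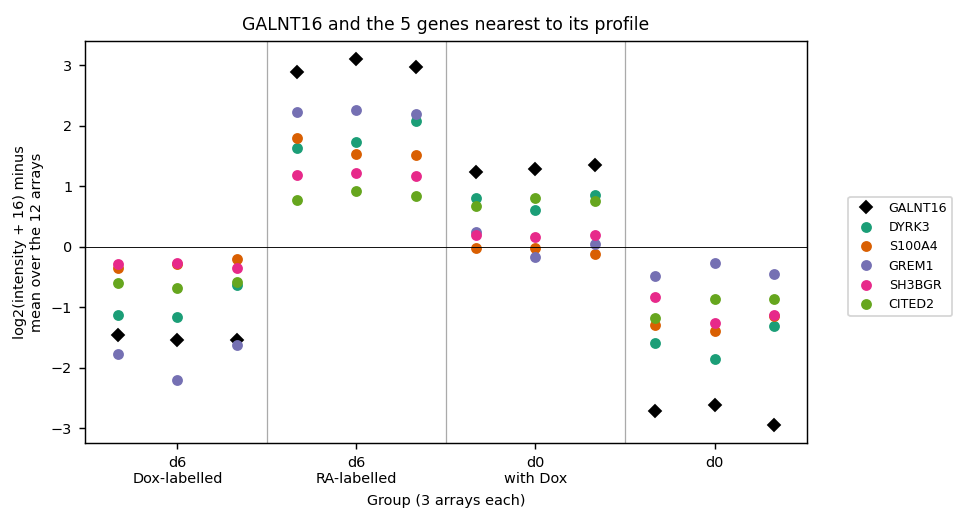
Centred log2(intensity + 16) of GALNT16 (black diamonds) and the 5 nearest genes on each of the 12 arrays, 3 per group, from left to right Dox-labelled day 6, RA-labelled day 6, d0 with Dox and d0. The group mean is highest in RA-labelled arrays for all 6 genes shown, and GALNT16 has the widest spread, 6.05 log2 units.

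Within the family GALNT2 stood nearest to GALNT16, at rank 150 of the 9887 (difference 1.88), and GALNT10 at rank 565 (2.005). GALNT3 stood among the furthest, at rank 9848 (3.41). A gene that does not vary has a difference set by the spread of GALNT16 alone, so small differences need a large spread of the gene itself.

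Counts in this list and those below stand beside the shares of all 19775 genes. With Dox at d0, 7.75% of all genes were called higher and 5.16% lower. Between the day 6 groups it was 13.7% and 12.2%. It was 25.3% and 25.2% in RA-labelled day 6 against d0, and 22.2% and 23.9% in Dox-labelled day 6 against d0 with Dox. No list was tested against these shares. Of the other GalNAc transferases, 9 had a probe set of their own. With Dox at d0 none of the 9 passed, and the smallest p belonged to GALNT6, at 199 ± 84.2 with Dox and 387 ± 23.4 without (log2 fold change -0.98, limma adjusted p = 0.0579). It passed under 5 alternatives (adjusted p = 0.00992 to 0.0443), among them leaving out replicate 3 of d0 with Dox (0.0236). GALNT6 was also lower in Dox-labelled (146 ± 42.1) than in RA-labelled day 6 arrays (299.8 ± 85.5), where it fell with GALNT18 (-0.51, limma adjusted p = 0.00184) while GALNT17 rose (0.34, adjusted p = 0.0423). The calls of GALNT6 and GALNT17 were lost with the 6 day 6 arrays alone (adjusted p = 0.0505 and 0.0789). That of GALNT6 was also lost with the replicate number as a block (0.0633), and that of GALNT17 with quantile normalization (0.0528) and with probe sets averaged (0.0506). That of GALNT6 was further lost without any 1 day 6 array other than RA-labelled replicate 1 and Dox-labelled replicate 2 (0.0601 to 0.13), and that of GALNT17 without any other than RA-labelled replicate 1 (0.0786 to 0.142). GALNT5 rose in both day 6 groups, to 277 ± 10.9 in Dox-labelled against 43.6 ± 26.6 in d0 arrays with Dox (log2 fold change 2.42) and to 320.0 ± 47.1 in RA-labelled against 25.4 ± 9.38 in d0 arrays (3.03), which probe set averaging lowered to 1.15 and 1.29. GALNT17 fell in both (-2.29 in Dox-labelled and -2.38 in RA-labelled arrays).

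Enzymes that build the cores on the first GalNAc mostly fell or did not pass. Of 7 measured, 1 rose with Dox at d0, C1GALT1C1, the chaperone COSMC that the core 1 synthase needs (3495 ± 149 with Dox and 2881 ± 80.3 without, limma adjusted p = 0.0368). That call was lost with median centring (0.0755), averaged probe sets (0.0536), the replicate block (0.0653), the 6 arrays alone (0.0905) and without any 1 of the 6 arrays (0.0701 to 0.119). Between the day 6 groups 1 rose and 1 fell, the core 2 branching enzyme GCNT1 (0.51, adjusted p = 0.0195) and dim B3GNT3 (-0.78, adjusted p = 0.00435). The call of GCNT1 was lost with the 6 arrays alone (0.0923) and without replicate 1 or 2 of the Dox-labelled arrays (0.0563 and 0.0667). In RA-labelled day 6 against d0, 3 fell and 0 rose, where 25.2% of all genes fell. In Dox-labelled day 6 against d0 with Dox 4 fell and 0 rose, where 23.9% of all genes fell. GCNT1 fell in both, to 142 ± 32.5 in RA-labelled against 719 ± 34.7 in d0 arrays (log2 fold change -2.24), and to 205 ± 12.2 in Dox-labelled against 632 ± 15.4 in d0 arrays with Dox (-1.55). C1GALT1, the core 1 synthase, fell in RA-labelled arrays (-0.87, limma adjusted p = 0.000231). It was also lower in Dox-labelled day 6 arrays, at 1272 ± 116, against 3101 ± 415 in d0 arrays with Dox.

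Among 9 enzymes of lactosamine extension and fucose capping, 6 fell and 1 rose in RA-labelled day 6 against d0. In Dox-labelled day 6 against d0 with Dox 7 fell and 1 rose. Of all genes, 25.2% and 23.9% fell in these comparisons. B3GALT5, which makes the type 1 chains of stem cell surface antigens, fell 11.9-fold in RA-labelled arrays, to 103 ± 14.8 against 1388 ± 55.3 in d0 arrays (log2 fold change -3.57, limma adjusted p = 1.55e-06). It fell 13.5-fold in Dox-labelled arrays, to 46.1 ± 32.2 against 757 ± 43.0 in d0 arrays with Dox (-3.75, adjusted p = 1.6e-06). With probe sets averaged these changes were -1.90 and -2.16. B4GALT1, which adds galactose in the type 2 chain, was the rise in both (log2 fold changes 1.15 in Dox-labelled and 1.32 in RA-labelled arrays). With probe sets averaged they were 0.17 and 0.33, and the call in Dox-labelled arrays was lost (adjusted p = 0.139). Between the day 6 groups 3 rose and 2 fell. FUT9, the fucosyltransferase of the Lewis X antigen, rose to 208 ± 12.6 in Dox-labelled, against 29.3 ± 1.69 in RA-labelled arrays (2.30, limma adjusted p = 7.57e-08), and was the 1 rise of the 9 with Dox at d0 (0.60, adjusted p = 0.00115). Averaging its probe sets lowered the day 6 change to 0.89 and ended the call at d0 (adjusted p = 0.239).

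Sialyltransferases went both ways in each comparison. Of 8, 3 rose and 1 fell in Dox-labelled against RA-labelled arrays, with ST6GALNAC5 (1.32, limma adjusted p = 2.11e-06) and ST3GAL1 (1.18, adjusted p = 0.00139) leading the rises and dim ST6GALNAC1 (-1.20, adjusted p = 0.0258) falling. The call of ST6GALNAC1 was lost with a pseudocount of 1 (0.0838), the 6 arrays alone (0.0704) and without replicate 1 or 2 of the RA-labelled or replicate 2 of the Dox-labelled arrays (0.0616 to 0.0842). ST6GALNAC5 was highest in undifferentiated cells, with log2 fold changes of -3.28 in RA-labelled day 6 against d0 and -2.28 in Dox-labelled day 6 against d0 with Dox (-1.92 and -1.29 with probe sets averaged). With Dox at d0, 2 rose and 1 fell, ST6GALNAC3 (0.41), ST6GALNAC5 (0.32) and ST6GALNAC4 (-0.62). The call of ST6GALNAC4 was lost with probe sets averaged (adjusted p = 0.171). That of ST6GALNAC5 was lost with median centring (0.0534), averaged probe sets (0.243), a trended variance (0.0677), the 6 arrays alone (0.0819) and without any 1 of the 6 arrays other than d0 replicate 2 (0.0649 to 0.0918). Of 4 measured genes of sugar nucleotide supply, none passed with Dox at d0. At day 6 GNPNAT1 (0.52) and GFPT1 (0.42), enzymes on the way to UDP-GlcNAc, rose and UAP1 (-0.25) fell in Dox-labelled against RA-labelled arrays. The call of GFPT1 was lost with probe sets averaged (log2 fold change 0.067, adjusted p = 0.547), and that of UAP1 with median centring (0.0851) and without any 1 of the 6 arrays (0.0501 to 0.0784).

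Other kinds of O-glycosylation gave 8 falls and 1 rise among 16 genes in Dox-labelled against RA-labelled arrays. There 12.2% of all genes fell and 13.7% rose. LFNG, which extends O-fucose on Notch, fell to 255 ± 30.7 in Dox-labelled, against 620.6 ± 29.6 in RA-labelled arrays (log2 fold change -1.24, limma adjusted p = 8.4e-05), and POMT1, which starts O-mannose chains, fell by 0.75 on the log2 scale (adjusted p = 0.0043). LFNG averaged 712 ± 77.6 with Dox and 301 ± 47.9 without at d0 (1.204, limma adjusted p = 0.000282), and it had its 2 higher levels in the same groups as GALNT16. At d0 5 of the 16 rose with Dox and none fell, where 7.75% of all genes rose and 5.16% fell. Among the 5, the call of POFUT2 (0.45, limma adjusted p = 0.0277) was lost with median centring (0.056), averaged probe sets (0.447), the replicate block (0.0553) and the 6 arrays alone (0.0669). It was also lost without any 1 of the 6 arrays other than d0 replicate 1 (0.0645 to 0.0885). Dox-labelled day 6 against d0 with Dox gave 10 falls and no rise, and RA-labelled day 6 against d0 gave 7 rises and 2 falls.

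Proteins known to carry mucin-type glycans divided. Of 12 measured, 2 rose and 5 fell in Dox-labelled against RA-labelled arrays, where 13.7% of all genes rose and 12.2% fell. PODXL, podocalyxin, rose to 20508 ± 128, against 11729.6 ± 865 in RA-labelled arrays (log2 fold change 0.81, limma adjusted p = 9.57e-05). CD24 rose to 18232 ± 1137, against 11424 ± 1016 (0.68, adjusted p = 0.000659). Both genes had higher means at d0, PODXL 28341 ± 1091 with Dox and 23964 ± 2422 without, and CD24 33629 ± 1230 with Dox and 30099 ± 3236 without. The epithelial mucin MUC1 (-0.98, adjusted p = 0.00117) and LRP8 (-0.71, adjusted p = 0.000114), a reelin receptor, fell between the day 6 groups. CD44, the hyaluronan receptor, rose in both day 6 groups against their d0 groups, by log2 fold changes of 3.02 in Dox-labelled and 2.97 in RA-labelled arrays (1.20 and 0.91 with probe sets averaged). With Dox at d0, 3 rose and 3 fell, among them MUC1 (0.57) and LRP1 (0.57) as rises and CD44 (-0.55) and LRP8 (-0.46) as falls. The call of MUC1 was lost with probe sets averaged (adjusted p = 0.398) and without any 1 of the 6 arrays (0.0628 to 0.122). That of LRP1 was lost with the 6 arrays alone (0.0865) and without any 1 of them other than replicate 2 of d0 with Dox (0.0606 to 0.0904), and its direction turned with probe sets averaged (-0.04).

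**Figure D5:**
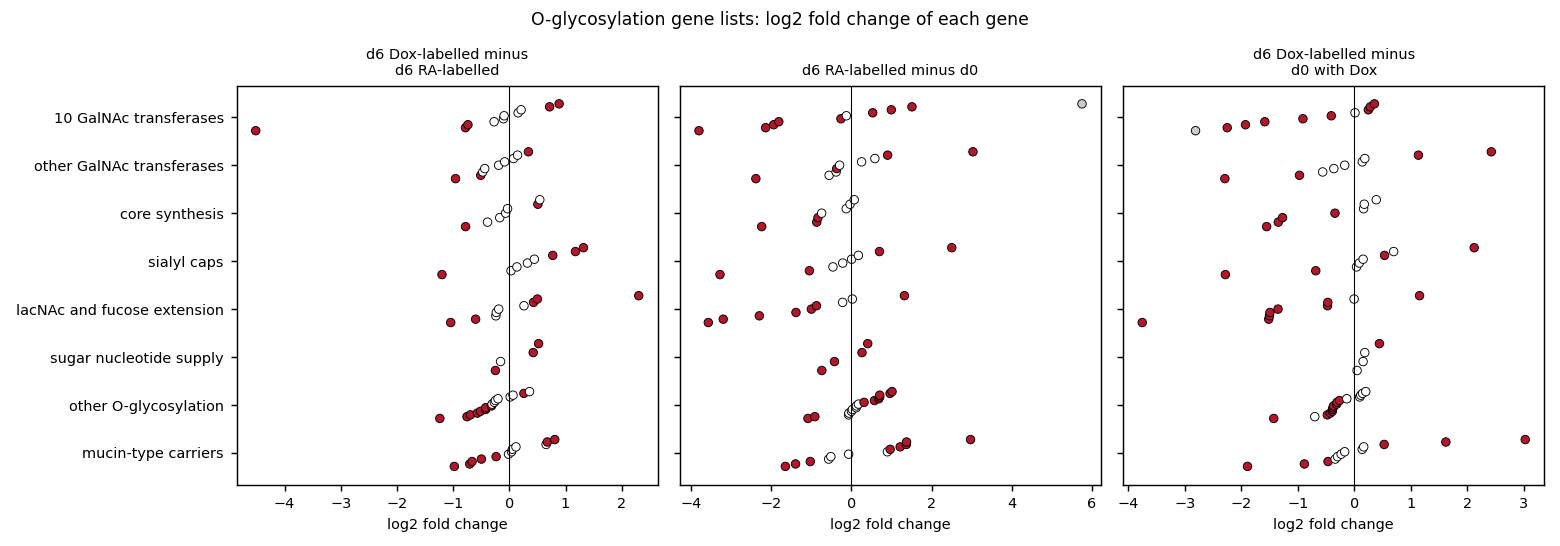
Log2 fold change of each gene of 8 O-glycosylation lists in 3 comparisons. Red circles passed an adjusted p of 0.05 in limma, white circles did not, and the grey circle is GALNT16 where its arrays were used in the choice; lactosamine and fucose genes lie mostly left of 0 in the 2 comparisons of day 6 with d0.

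The 4 comparisons share groups with each other: the d0, d0 with Dox, RA-labelled and Dox-labelled arrays each enter 2 of them. Counts of a list in 2 comparisons are therefore not independent.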

How the data were processed

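Probe set signals of 12 arrays were taken as the authors deposited them, as linear intensity values. The labels do not state the authors' background correction, probe summary or scaling. The mean intensity after leaving out the lowest and highest 2% was 500.1 on every array, so a comparison between arrays is one of relative signal. Groups and replicate numbers came from the titles. Gene names came from the platform's annotation, updated through the gene ID to GRCh38.p14 names. Of the probe sets with 1 symbol, the one brightest on average over the 12 arrays (mean log2) stood for each of 19775 genes.

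Tests used log2(intensity + 16), a scale on which changes of dim genes come out too small, with lmFit and eBayes of limma 3.58.1 in R 4.3.3. All 12 arrays entered, with 4 group means and so 8 residual degrees of freedom. Benjamini-Hochberg adjustment ran over all genes, or over all 54675 probe sets where said, at a threshold of 0.05. The procedure was checked on simulated data.

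The 10 genes, the 7 pathway lists and the marker lists were chosen with earlier results of these data known. All 10 genes were named whatever their values. From each pathway list, up to 2 largest rises and falls among called genes per comparison could be named, or the gene with the smallest p where none passed. Also named were the 5 genes most like GALNT16 and, as checks of the labels, NR6A1, CYP26A1 and CYP26B1. Listed genes without a single-symbol probe set were not analysed here. Alternatives were other scalings, probe set choices, pseudocounts, filters, variance models, the 6 arrays alone, a replicate block and leaving out each array.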

Additional observations from a re-analysis of the deposited data

How the results depend on the processing

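The fall of GALNT16 in Dox-labelled against RA-labelled arrays lay between -4.57 and -3.31 on the log2 scale under all alternatives run. Counts of called genes without 1 array at a time were 1786 to 2323 for d0 with Dox against d0 (2552 with all arrays), 4043 to 4490 for Dox-labelled against RA-labelled (5120), 9272 to 9520 for RA-labelled against d0 (9993) and 8296 to 8370 for Dox-labelled against d0 with Dox (9120). Of the 10 GALNT genes, 4 to 5 were then called in Dox-labelled against RA-labelled. Of the 9 without GALNT16, 8 were then called in RA-labelled against d0 and 6 to 8 in Dox-labelled against d0 with Dox. No such count is given for d0 with Dox against d0, the comparison that chose the genes. With the 6 arrays of d0 with Dox against d0 alone 1522 genes were called, and with probe sets of a gene averaged 3 of the 10 GALNT genes were called between the day 6 groups, GALNT3 and GALNT13 being lost. With each probe set tested on its own, which counts probe sets and not genes, 8471 and 11 of the GALNT probe sets were called between the day 6 groups, 20829 and 14 in RA-labelled against d0, and 19061 and 16 in Dox-labelled against d0 with Dox, leaving out GALNT16 in the last 2 comparisons.

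Directions turned for LRP1 with Dox at d0 (-0.043), GALNT1 (0.077) and GFPT1 (0.45) in RA-labelled against d0 and GALNT10 in Dox-labelled against d0 with Dox (-0.036), each with probe sets averaged, and for GALNT7 in the last comparison with quantile normalization (-0.029) and without replicate 3 of d0 with Dox (-0.021, the range without 1 array being -0.021 to 0.036). The cause was not tested. Centring each array on its median moved the median of all genes in Dox-labelled against d0 with Dox to 0.11 and the calls to 5407 higher and 3606 lower, against 4392 and 4728. Same-numbered arrays correlated at -0.0084 to 0.0483 in their deviations and others at -0.0599 to 0.0192. All were near 0, with the highest among the same-numbered. Whether the replicate numbers pair samples cannot be told from these values. With the replicate block 2296, 4901, 9916 and 8987 genes were called, the comparisons being in the order given above. Of the 10 GALNT genes 5 were then called between the day 6 groups. Of the 9 without GALNT16, 8 were called in each comparison of day 6 with d0. Over 1491 refits of single genes, a call was lost in 130 and gained in 12. Dim probe sets near the added 16 limit what can be read from GALNT13 and the third GALNT16 probe set.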
